A study of Mus musculus with 20 samples.

Results

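The serum amyloid A genes Saa1, Saa2, Saa3 and Saa4 were taken by gene symbol from the deposited count data, where each of these 4 symbols named 1 of the 37681 genes listed. All 4 passed the filter on low counts (a count of 5 or more in any 5 libraries of a table), as did 15578 genes in total. The counts come from liver tissue of 10 male mice aged 12 weeks, whose strain is labelled C57/BL6 and given as C57/B6J in the growth notes. Mice ILB_9577, ILB_9578, ILB_9579, ILB_9582 and ILB_9583 received IL-1β at 20 µg/kg, and mice UNT_9574, UNT_9575, UNT_9576, UNT_9580 and UNT_9584 received saline and are called untreated. No genetic change is labelled in either group. Liver samples were collected 4 hours later, so the data hold 1 dose and 1 time. Aliquots of the same RNA went to an Illumina and an Ion Torrent sequencer, and the reads of each were aligned by STAR, by GSNAP, or by STAR with Bowtie2 for reads that STAR left unmapped (STAR + Bowtie2). This gave 6 tables of 10 libraries. The Illumina STAR table is the one described in detail here, and the other tables are a check on it. Totals per library ran from 10568530 to 12008799 in the Illumina tables and from 12199528 to 16439683 in the Ion Torrent tables. Counts are called reads throughout, although the tables do not say whether an Illumina count is a read or a read pair.

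Serum amyloid A proteins are small apolipoproteins. Saa1 and Saa2 encode the plasma forms that hepatocytes secrete during the acute phase response and that circulate on high-density lipoprotein (HDL). Saa3 encodes a form made in many tissues, by macrophages and adipocytes among other cells, and Saa4 encodes the form known as constitutive because it is present on HDL without inflammation. Transcription of the inducible genes is known to be driven by NF-κB, by C/EBP factors and by STAT3, downstream of IL-1, IL-6 and TNF.

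The labelled tissue was checked against hepatocyte markers. Alb, Apob, Ttr, Cps1 and Cyp2e1 together made up 98528 to 113820 CPM (reads of a gene per 1000000 reads counted in the library) in the untreated libraries and 67101 to 73754 CPM in the IL-1β libraries of the Illumina STAR data, and Tf is not listed under that symbol.

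In the mm9 annotation the 4 genes lie within 42.3 kb of chromosome 7, each with 4 exons and 1 transcript. Saa3 (ENSMUSG00000040026) is at chr7:53967368-53971046, Saa4 (ENSMUSG00000040017) at chr7:53983387-53987913 and Saa1 (ENSMUSG00000074115) at chr7:53995871-53998350, all on the minus strand. Saa2 (ENSMUSG00000057465) is at chr7:54007203-54009684 on the plus strand, so that Saa1 and Saa2 are transcribed away from each other from starts 8.85 kb apart. Merged exons cover 0.605 kb for Saa1, 0.610 kb for Saa2, 0.531 kb for Saa3 and 2.02 kb for Saa4. Between Saa1 and Saa2 the coding sequences are 95.1% identical, with 18 mismatches in 369 bases. Saa3 is 77.1% identical to Saa1 over the coding sequence, and Saa4 is 65.7% to 67.3% identical to the other 3.

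The 250 bases before each RefSeq transcription start are shown because Saa1 and Saa2 share nearly all of this stretch while Saa3 and Saa4 do not. The sequences are from RefSeq on GRCm38.p6, written 5′ to 3′ on the strand of the gene, and each had 1 exact match on chromosome 7 of mm9. The mm9 positions are chr7:53998351-53998600 (minus strand) for Saa1, chr7:54006953-54007202 (plus strand) for Saa2, chr7:53971047-53971296 (minus strand) for Saa3 and chr7:53987974-53988223 (minus strand) for Saa4. Capitals mark matches to the C/EBP-type motif TTNNGNAA on either strand.
Saa1: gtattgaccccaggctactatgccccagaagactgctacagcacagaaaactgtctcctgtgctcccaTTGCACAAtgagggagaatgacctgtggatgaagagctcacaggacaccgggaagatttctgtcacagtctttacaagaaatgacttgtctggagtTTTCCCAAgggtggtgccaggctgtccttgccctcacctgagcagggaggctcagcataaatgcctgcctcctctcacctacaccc
Saa2: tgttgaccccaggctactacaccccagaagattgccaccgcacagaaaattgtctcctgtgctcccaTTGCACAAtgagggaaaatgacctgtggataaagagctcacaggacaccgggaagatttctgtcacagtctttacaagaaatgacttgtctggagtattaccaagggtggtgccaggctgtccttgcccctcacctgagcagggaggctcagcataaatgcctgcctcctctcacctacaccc
Saa3: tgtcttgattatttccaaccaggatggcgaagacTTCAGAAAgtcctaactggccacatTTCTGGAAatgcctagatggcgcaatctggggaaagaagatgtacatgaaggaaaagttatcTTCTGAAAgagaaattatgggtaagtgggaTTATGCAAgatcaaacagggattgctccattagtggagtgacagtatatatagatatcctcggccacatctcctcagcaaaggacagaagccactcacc
Saa4: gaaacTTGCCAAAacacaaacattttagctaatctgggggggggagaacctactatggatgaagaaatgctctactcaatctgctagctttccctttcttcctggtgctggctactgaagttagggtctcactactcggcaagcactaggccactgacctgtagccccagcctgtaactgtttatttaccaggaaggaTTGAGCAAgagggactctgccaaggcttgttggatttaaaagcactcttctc

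Over these windows Saa1 and Saa2 were 94.8% identical, with 11 mismatches. Saa3 was 52.2% identical to Saa1 and 52.4% identical to Saa2, and Saa4 was 46.8% to 49.5% identical to the other 3. The C/EBP-type motif matched 2 times in Saa1, 1 time in Saa2, 4 times in Saa3 and 2 times in Saa4. The 1 match in Saa2 has the same letters as the match of Saa1 farther from its start, and the other match of Saa1 has no counterpart in Saa2. Of 32817 RefSeq promoters of the same length, 36.8% held this motif. None of the 4 windows held the NF-κB consensus GGGRNNYYCC (7.25% of promoters), the STAT motif TTCNNNGAA (7.01%, both strands) or TATAAA on the gene strand (7.60%). Here R is A or G, Y is C or T and N is any base. Sites that differ from a motif by a letter were not counted. The matches are of letters only, and no binding was measured.

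Saa1 and Saa2, the acute phase forms of plasma, rose 127-fold and 384-fold with IL-1β. Saa1 had 1068, 475, 317 and 555 reads in untreated mice UNT_9574, UNT_9575, UNT_9580 and UNT_9584, and in UNT_9576 it had 95.9% of the reads of UNT_9574. With IL-1β it had 73892, 91304, 68342, 70877 and 79168 reads in mice ILB_9577, ILB_9578, ILB_9579, ILB_9582 and ILB_9583. The groups lay far apart, with the lowest IL-1β library at 64.0 times the highest untreated library. The log2 fold change of Saa1 was 6.99 (SE 0.324, 95% interval of the fold 78.8 to 205, edgeR adjusted p = 7.81e-10). These are samples of liver tissue, in which a change in the number of cells of a type and a change in the RNA per cell cannot be told apart.

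Saa2 had 344, 194, 410, 141 and 258 reads in untreated mice UNT_9574, UNT_9575, UNT_9576, UNT_9580 and UNT_9584, and the values below follow this order and that of the IL-1β mice above. It had 88105, 109172, 82380, 83583 and 92223 reads with IL-1β. In the Illumina STAR data Saa2 thus passed from fewer reads than Saa1 in every untreated mouse to more in every IL-1β mouse. Their exons are of nearly equal length. The Ion Torrent STAR and STAR + Bowtie2 data did not show this crossing. There Saa1 stayed above Saa2 per kb of merged exons in 5 of 5 IL-1β mice. With Ion Torrent GSNAP Saa1 was above Saa2 in 1 of 5. The log2 fold change of Saa2 was 8.58 (SE 0.294, 95% interval of the fold 249 to 592, adjusted p = 2.96e-11).

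Saa3, the form made in many tissues, rose most. Untreated livers held 55, 69, 55, 72 and 65 Saa3 reads. With IL-1β there were 38448, 52152, 40832, 36892 and 43356 reads. The lowest IL-1β library had 512 times the reads of the highest untreated one. The log2 fold change of Saa3 was 9.56 (SE 0.183, a 755-fold rise with a 95% interval of 576 to 990, adjusted p = 4.73e-14). The SD of the untreated counts was 7.89 in the Illumina STAR data, and counting error alone gives 7.95 at this depth. It was 5.76 against 8.44 with Illumina GSNAP and 5.89 against 8.56 with Illumina STAR + Bowtie2. In the Ion Torrent data it was above counting error, at 15.2 against 9.78 with STAR, 22.1 against 10.8 with GSNAP and 16.8 against 10.6 with STAR + Bowtie2. None of these differences was tested.

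Saa4, the constitutive form, rose 2.63-fold. It had 7009, 6044, 5898, 3634 and 4182 reads in the untreated mice. With IL-1β it had 12309, 13079, 11237, 11371 and 13703 reads. The groups did not overlap here either, but the gap was small, with the lowest IL-1β library at 1.60 times the highest untreated one. The log2 fold change of Saa4 was 1.39 (SE 0.147, 95% interval of the fold 2.11 to 3.26, adjusted p = 2.42e-06).

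All 4 genes were thus called higher by edgeR's quasi-likelihood test at an adjusted p below 0.05, against 22.7% of the genes tested in the Illumina STAR data (22.9% were called lower). By size of rise among all genes tested Saa3 ranked 4, Saa2 6, Saa1 15 and Saa4 926. Mouse ILB_9578 was the highest of the IL-1β mice for Saa1, Saa2 and Saa3, while mouse ILB_9583 was the highest for Saa4. Among untreated mice, UNT_9580 was the lowest for Saa1, Saa2 and Saa4 in all 6 tables.

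**Figure D1:**
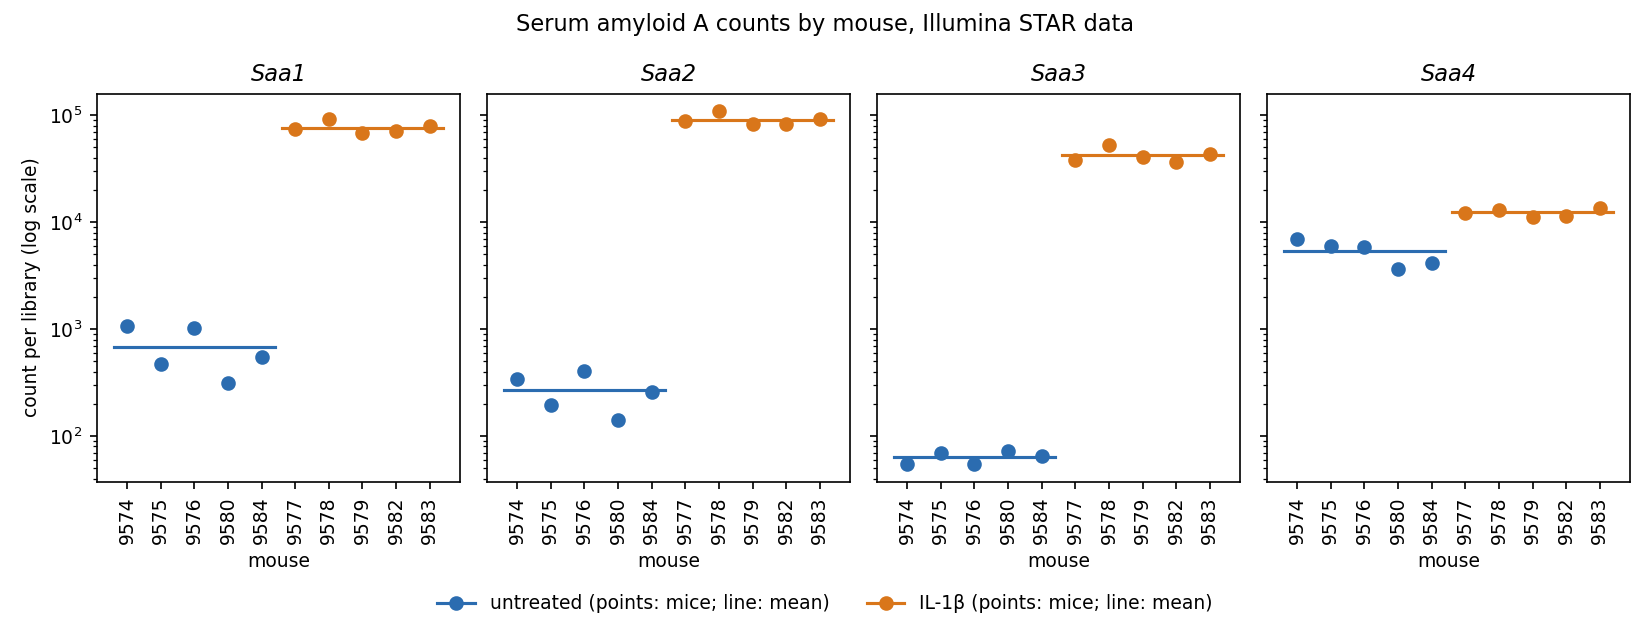
Reads of the 4 serum amyloid A genes in each of the 10 mice (x axis: mouse; y axis: count per library on a log scale) in the Illumina STAR data. Points are mice and lines are group means; the 5 IL-1β mice lie above the 5 untreated mice in every panel, with a gap of 64.0 times for Saa1, 201 times for Saa2, 512 times for Saa3 and 1.60 times for Saa4.

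The spread between mice also differed between the groups. For Saa1 the coefficient of variation was 49.2% among untreated mice and 11.9% among IL-1β mice (n = 5 each). For Saa2 it was 40.5% and 11.9%, and for Saa4 26.2% and 8.65%. Saa3 was the exception, with 12.5% among untreated and 14.2% among IL-1β mice. No test of these spreads was made.

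The same direction and call were found for all 4 genes in all 6 tables. The genes called higher made up 23.7% of those tested with Illumina GSNAP, 22.9% with Illumina STAR + Bowtie2, 20.3% with Ion Torrent STAR, 22.5% with Ion Torrent GSNAP and 22.8% with Ion Torrent STAR + Bowtie2. The log2 fold change of Saa1 ran from 6.95 to 6.99 over the 6 tables, that of Saa2 from 8.29 to 8.65, that of Saa3 from 9.39 to 9.59 and that of Saa4 from 1.36 to 1.39. These ranges are narrower than 1 SE of a single table for Saa1 and Saa4. The 6 tables hold the same 10 mice, so that SE does not measure how far the tables should differ. The groups did not overlap for any of the 4 genes in any table, and the smallest gap was that of Saa4, at 1.60 to 1.70 times. Of all genes tested, every IL-1β count lay above every untreated count for 12.1% with Illumina STAR, 12.5% with Illumina GSNAP, 12.8% with Illumina STAR + Bowtie2, 10.2% with Ion Torrent STAR, 11.2% with Ion Torrent GSNAP and 11.6% with Ion Torrent STAR + Bowtie2.

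**Figure D2:**
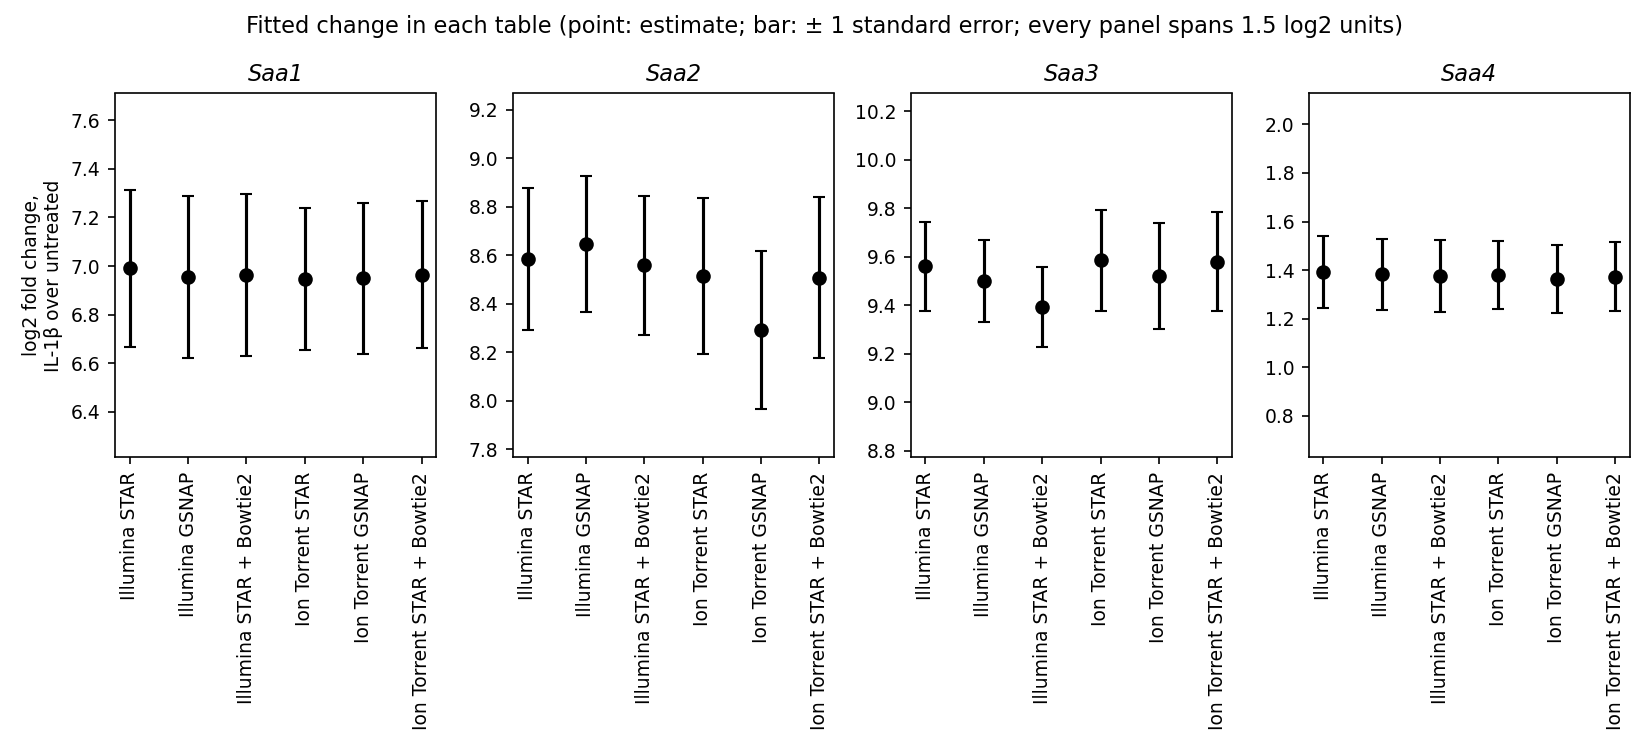
Log2 fold change of IL-1β over untreated mice for each gene (y axis, a different range but the same height of 1.5 log2 units in each panel) in the 6 tables of platform and aligner (x axis), from edgeR. Points are estimates and bars are ± 1 standard error; the lowest point for Saa2, 8.29, is that of the Ion Torrent GSNAP data.

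Whether the rise differed between the platforms was tested in the 20 libraries of each aligner, with the mouse as a block. None of the 12 terms (4 genes by 3 aligners) was called by edgeR at an adjusted p below 0.05, against 0.00642% of genes tested with STAR, 0.0642% with GSNAP and 0.0770% with STAR + Bowtie2. DESeq2 and limma-voom also called 0 of the 12, and 1 of the 12 had an unadjusted p below 0.05 with edgeR, a share near that of all genes tested (7% with STAR, 7.81% with GSNAP and 7.77% with STAR + Bowtie2). That term was Saa2 with GSNAP, whose rise was smaller by 0.33 on the log2 scale in the Ion Torrent data (a term of -0.33, SE 0.0942, 95% interval -0.52 to -0.13, unadjusted p = 0.00213, adjusted p = 0.521). Without untreated mouse UNT_9584 the edgeR adjusted p of this term was 0.00725, with a term of -0.37. The 2 libraries of that mouse were the least alike of any pair. Their deviations from the group means correlated at 0.166 to 0.238, against 0.488 to 0.699 for the other 9 mice. With STAR the Saa2 term was -0.02 (95% interval -0.21 to 0.16). The intervals of the STAR terms were -0.20 to 0.08 for Saa1, -0.21 to 0.27 for Saa3 and -0.15 to 0.14 for Saa4.

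Levels were compared between genes per length, as CPM per kb of merged exons, with library totals unscaled. In the untreated Illumina STAR libraries the order was Saa4 (242 ± 63.9, SD, n = 5), Saa1 (104 ± 51.1), Saa2 (40.2 ± 16.3) and Saa3 (10.8 ± 1.34). With IL-1β the order was Saa2 (14071 ± 1707), Saa1 (11948 ± 1445), Saa3 (7512 ± 1083) and Saa4 (577 ± 50.1). The constitutive form thus moved from the highest to the lowest level of the family although it rose. Saa1 and Saa2 were neighbours whose ranges over mice overlapped in both groups, although within each mouse Saa1 was above Saa2 in 5 of 5 untreated mice and below it in 5 of 5 IL-1β mice, whereas the other neighbours in either order did not overlap. Of 37310 genes with a length, Saa2 ranked 2, Saa1 4, Saa3 9 and Saa4 91 by this level with IL-1β, and Saa4 ranked 217, Saa1 526, Saa2 1185 and Saa3 3435 in untreated livers.

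In the Ion Torrent STAR data the untreated order was the same, with Saa4 at 201 ± 48.0, Saa1 at 89.2 ± 40.0, Saa2 at 25.4 ± 12.8 and Saa3 at 14.2 ± 2.21 (SD, n = 5), and Saa2 was above Saa3 in 4 of 5 mice. With IL-1β the 3 inducible genes lay close together, at 10095 ± 1891 for Saa3, 10070 ± 1863 for Saa1 and 8504 ± 808 for Saa2. Within a mouse Saa1 was above Saa2 in 5 of 5 IL-1β mice, while Saa3 was above Saa2 in 4 of 5 and above Saa1 in 2 of 5, so that the place of Saa3 cannot be told from these mice. Saa4 was again the lowest, at 478 ± 43.0. The tables were normalized separately, so these levels are set side by side with no test.

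**Figure D3:**
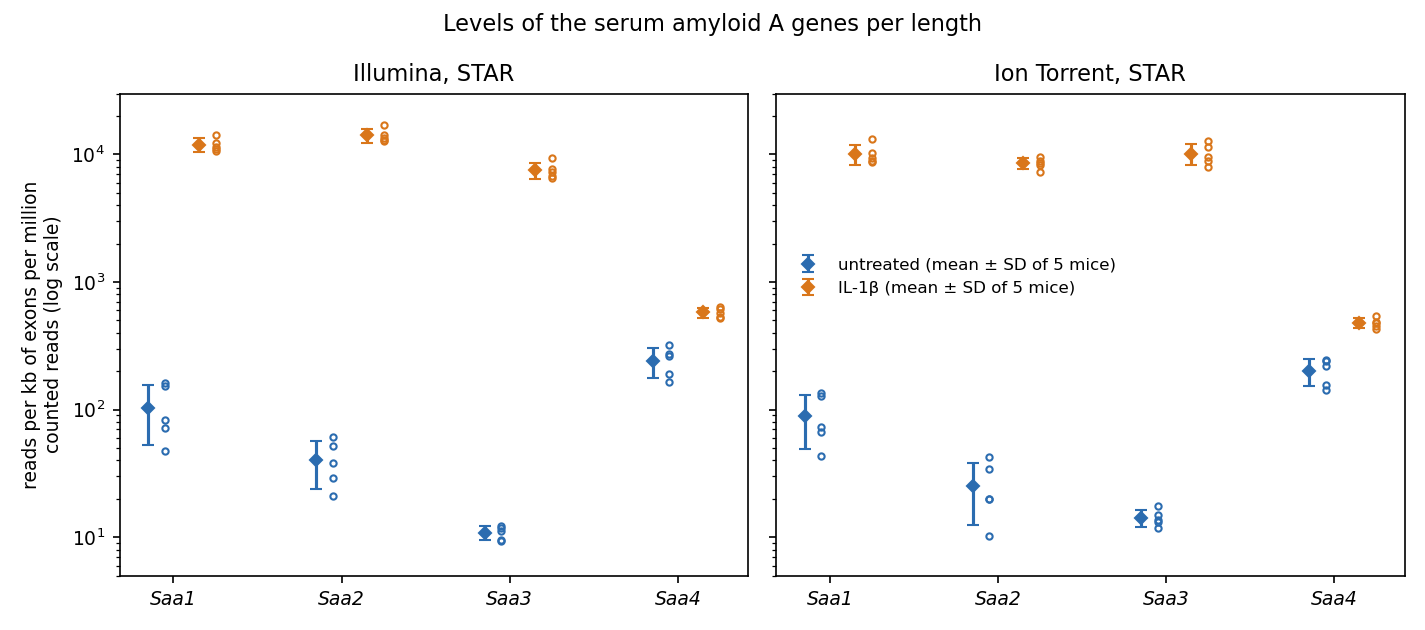
Level of each gene per length in the STAR data of both platforms (x axis: gene; y axis: CPM per kb of merged exons, on a log scale). Diamonds and bars are the mean ± SD of 5 mice and open circles are mice; Saa4 is the highest of the 4 in untreated livers and the lowest with IL-1β on both platforms.

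Together the 4 genes took 0.0581% ± 0.0161 of the counted reads in untreated livers and 2.10% ± 0.253 with IL-1β (SD, n = 5, Illumina STAR). The ratio of the means was 36.1, and the groups did not overlap (exact permutation test, two-sided p = 0.00794, the smallest that 5 mice against 5 can give). Over the 6 tables the IL-1β share ran from 1.76% to 2.16% and the untreated share from 0.0482% to 0.0590%. Within the family, Saa4 gave 84.3% ± 3.78 of the reads of untreated livers and 5.57% ± 0.404 with IL-1β. Saa1, Saa2 and Saa3 gave 10.4%, 4.19% and 1.08% of the untreated reads and 34.5%, 40.9% and 19.0% of the IL-1β reads. In the Ion Torrent STAR data Saa3 gave 30.4% ± 2.74 of the IL-1β reads of the family, against 19.0% ± 0.893 with Illumina STAR, and this difference was not tested.

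Whether 2 members rose by different amounts was asked from the log2 ratio of their reads within a library (0.5 reads added to both), which needs no scaling. All 6 pairs were compared, with exact permutation tests over the mice and Benjamini-Hochberg adjustment over the 6. The ratio of Saa2 to Saa1 was higher by 1.55 with IL-1β, going from -1.30 ± 0.205 to 0.25 ± 0.0192 (SD, n = 5, exact permutation p = 0.00794, adjusted 0.00952). Against Saa4 the ratio was higher by 5.70 for Saa1, by 7.25 for Saa2 and by 8.13 for Saa3, and the ratio of Saa3 to Saa1 was higher by 2.43. These 4 pairs had the same smallest p and did not overlap.

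The pair least apart was Saa3 and Saa2. Their log2 ratio went from -1.99 ± 0.795 in untreated mice to -1.11 ± 0.0778 with IL-1β, a difference of 0.88 (exact permutation p = 0.0476, adjusted 0.0476), and the groups overlapped. Leaving out any mouse other than untreated UNT_9580 ended this call, with an exact permutation p of up to 0.0952, and without UNT_9580 the difference was 1.14 (exact permutation p = 0.0159, the smallest possible there). In the other Illumina data the difference was 0.77 with GSNAP and 0.74 with STAR + Bowtie2 (exact permutation p = 0.0476 for both). In the Ion Torrent data it was 0.91 with STAR, 1.09 with GSNAP and 0.92 with STAR + Bowtie2 (exact permutation p = 0.0238, 0.00794 and 0.0238). The order of rise Saa3, Saa2, Saa1, Saa4 was the same in all 6 tables by the fitted fold changes.

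Saa1 and Saa2 are near copies, and how reads that match both were assigned is not given in the sources used here. Of 50-base windows in the transcript, 10.8% of those of Saa1 and 9.09% of those of Saa2 also occur in another member, and Saa3 shares 1.87% with Saa1. At 75 bases Saa1 and Saa2 share 2 windows, and at 100 or at 125 bases, the length of an Illumina read, none is shared. The split of reads between the 2 genes is therefore given for each table.

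Saa1 reads were 45.6%, 45.5%, 45.3%, 45.9% and 46.2% of the reads of Saa1 and Saa2 together in IL-1β mice ILB_9577, ILB_9578, ILB_9579, ILB_9582 and ILB_9583 (Illumina STAR). In untreated mice UNT_9574, UNT_9575, UNT_9576, UNT_9580 and UNT_9584 they were 75.6%, 71.0%, 71.4%, 69.2% and 68.3%. The groups did not overlap, and the difference was larger than the spread between mice, with means of 45.7% ± 0.330 and 71.1% ± 2.84 (SD, n = 5, exact permutation p = 0.00794). In the other 5 tables the mean share lay between 46.0% and 53.8% with IL-1β and between 70.4% and 78.1% in untreated mice, without overlap (exact permutation p = 0.00794 in each).

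The share itself moved with platform and aligner, as 9 comparisons paired by mouse showed (exact sign permutation over 10 mice, two-sided, with Benjamini-Hochberg adjustment over the 9). With STAR it was higher by 7.53 ± 3.16 percentage points in the Ion Torrent data, in 10 of 10 mice (SD, exact p = 0.00195, adjusted 0.00293). With GSNAP the platforms differed by -1.01 ± 3.79 points, with 5 of 10 mice on either side (exact p = 0.422, adjusted 0.422). Within the Ion Torrent data GSNAP gave a share lower than STAR in all 10 mice, by a difference of -6.62 ± 1.88 points, and within the Illumina data it gave one higher by 1.92 ± 0.870 points in all 10 (exact p = 0.00195 and adjusted 0.00293 for both). STAR + Bowtie2 differed from STAR by 0.22 ± 0.639 points with Illumina and -0.49 ± 0.820 points with Ion Torrent (exact p = 0.297 and 0.0762, adjusted 0.334 and 0.0979). The drop in the Saa1 share with IL-1β, of 22.2 to 26.1 percentage points, was larger than any of these differences between tables.

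**Figure D4:**
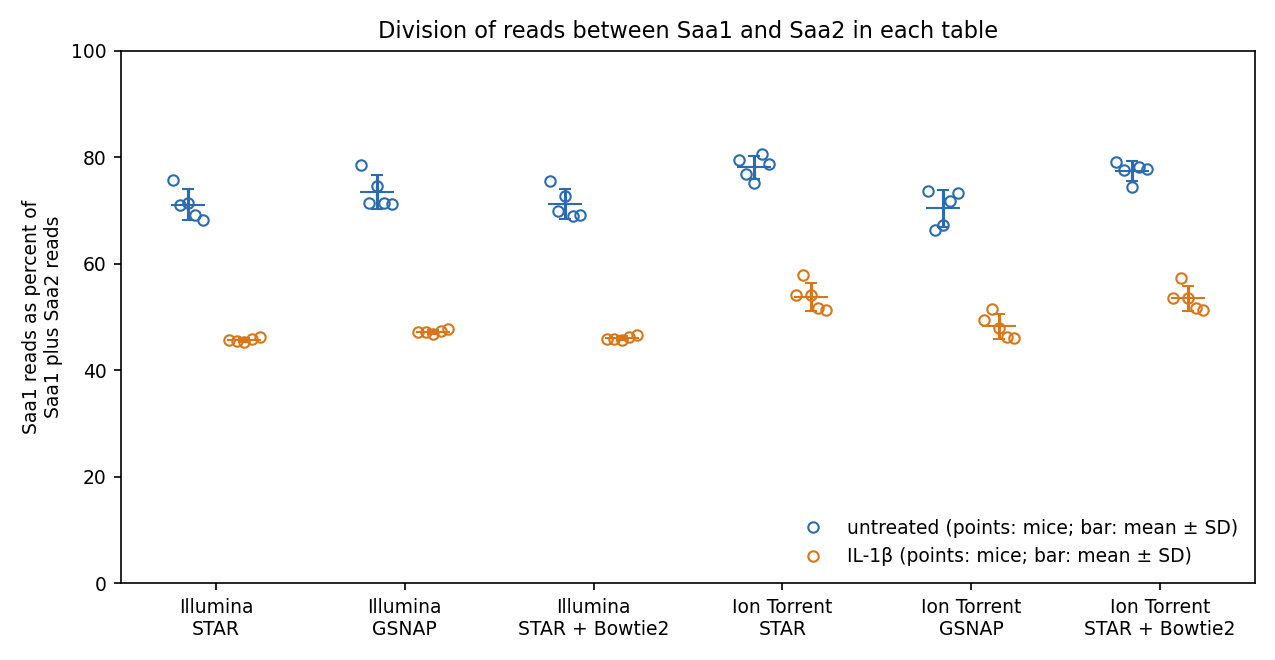
Reads of Saa1 as a percentage of the reads of Saa1 and Saa2 together (y axis) in the 6 tables (x axis). Open circles are mice and bars are the mean ± SD of 5 mice; the untreated mice lie above the IL-1β mice in every table, and the Ion Torrent STAR and STAR + Bowtie2 data lie higher than the other 4.

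The genes around the cluster were measured in the same fit. Within 150 kb on either side the annotation holds 11 other genes, of which 8 were tested, while Gm15700, Tph1 and Ldhc had 0 reads in all 10 Illumina STAR libraries. Of the 8, Sergef, Gtf2h1, Gm5331 and Ldha were called higher and Hps5 lower (22.7% and 22.9% of all genes tested). None came near the rise of Saa1, Saa2 or Saa3.

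Saal1, which bears the name serum amyloid A-like 1, lies next to Saa3 and had 52 to 61 reads in untreated and 25 to 61 in IL-1β libraries, a log2 fold change of -0.15 (SE 0.202, adjusted p = 0.603). Hps5, a subunit of a lysosome biogenesis complex, lies beyond Saa2 and had a log2 fold change of -0.31 (SE 0.108, adjusted p = 0.0266), called in 3 of 6 tables. Gtf2h1, a subunit of the transcription factor TFIIH, rose by 0.41 (SE 0.0987, adjusted p = 0.00291) and was called in all 6.

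Ldha, the muscle-type chain of lactate dehydrogenase, went from 6078 to 7331 reads in untreated mice to 14207 to 16756 with IL-1β. Its log2 fold change of 1.38 (SE 0.0931, adjusted p = 2.57e-08) was close in size to the 1.39 of Saa4, and it was called in all 6 tables. Gm5331 rose by 1.72 (SE 0.407, adjusted p = 0.00279) on 1 to 5 reads in untreated and 6 to 13 in IL-1β libraries, called in 4 tables. Sergef, a guanine nucleotide exchange factor, had a log2 fold change of 0.61 (SE 0.236, adjusted p = 0.0476), called in 4 tables and not called with library totals in place of TMM (adjusted p = 0.120). The pseudogene Gm9392, inside Gtf2h1 on the other strand, had -0.31 (SE 0.286, adjusted p = 0.409), and reads of the pair cannot be told apart unless strand was used in counting, which is not stated. Tsg101, a subunit of the ESCRT-I complex, had a log2 fold change of 0.02 (SE 0.106, adjusted p = 0.907).

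**Figure D5:**
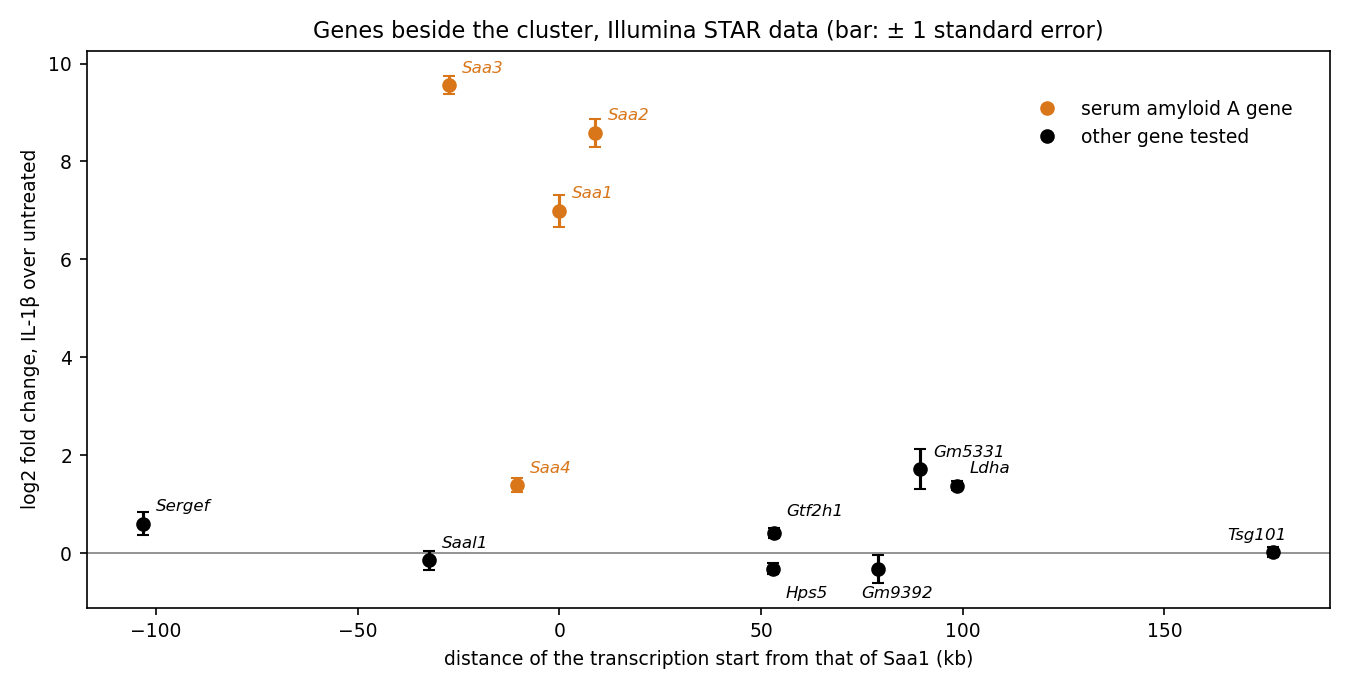
Log2 fold change of IL-1β over untreated mice in the Illumina STAR data (y axis) for the 4 serum amyloid A genes and the 8 other genes tested within 150 kb of the cluster, against the distance of the transcription start from that of Saa1 (x axis, kb). Points are edgeR estimates and bars are ± 1 standard error; Saa1, Saa2 and Saa3 lie at 6.99 to 9.56 and every other gene at or below 1.72.

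Genes known to act on or with serum amyloid A were taken as lists, whose counts are given beside those of all genes tested, of which 22.7% were called higher and 22.9% lower with a median log2 fold change of 0.00. Of 13 regulators of its transcription, 10 were called higher and 1 lower, with a median of 0.71. Nfkb2, an NF-κB subunit, rose by 3.07 on the log2 scale (SE 0.253, adjusted p = 2.15e-07) and Cebpd, a C/EBP factor of the acute phase, by 2.17 (SE 0.259, adjusted p = 7.74e-06). Cebpa, the C/EBP factor of resting hepatocytes, fell by 0.85 (SE 0.174, adjusted p = 0.000920). These 3 were called in all 6 tables.

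Of 12 genes of the cytokine signals upstream, 10 were tested, 6 were called higher and 2 lower, the latter near the 22.9% of all genes, and the median was 0.87. Il1r1, the signalling receptor of IL-1, rose by 3.46 (SE 0.180, adjusted p = 2.11e-09), while Il1rap, its coreceptor, fell by 0.68 (SE 0.103, adjusted p = 6.91e-05). Socs3, a feedback inhibitor of STAT3 signalling, rose by 2.30 (SE 0.384, adjusted p = 0.000176). Nr3c1, the glucocorticoid receptor, fell by 0.65 (SE 0.113, adjusted p = 0.000231). Il6 and Tnf were not tested, with at most 3 and 5 reads in an IL-1β library.

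Of 8 proposed receptors of serum amyloid A, 7 were tested, 3 were called higher and 0 lower, against 22.7% and 22.9% of all genes, with a median of 0.61. Tlr2 rose by 5.49 (SE 0.366, adjusted p = 2.41e-08), and Fpr2, a formyl peptide receptor, by 1.59 (SE 0.276, adjusted p = 0.000243). Scarb1, the HDL receptor of hepatocytes, was the third gene called.

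Of 9 genes of HDL proteins and remodelling, the particle that carries plasma serum amyloid A, 2 were called higher and 2 lower, which is near the share of all genes in both directions, with a median of -0.18. Abca1, which loads lipid onto apolipoproteins, rose by 1.69 (SE 0.180, adjusted p = 2.54e-06). Pon1, an HDL-bound esterase, fell by 0.51 (SE 0.113, adjusted p = 0.00188). Lcat, which esterifies cholesterol on HDL, had a log2 fold change of 0.34 (SE 0.0936, adjusted p = 0.00845) and Apoa2, a main HDL protein, one of -0.35 (SE 0.113, adjusted p = 0.0181), each called in only 3 of the 6 tables. Apoa1, the chief protein of HDL, had -0.30 (SE 0.201, adjusted p = 0.252).

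All 17 other plasma acute phase genes were called higher in all 6 tables, with a median of 2.29 and a range of 0.97 to 9.90. Lcn2, an iron-siderophore binding protein, rose by 9.90 (SE 0.257, adjusted p = 2.04e-12), more than Saa3. Orm2, an acid glycoprotein of plasma, rose by 4.69 (SE 0.264, adjusted p = 4.85e-09). Scaling by library totals in place of TMM moved the median of all genes by -0.13 on the log2 scale in the Illumina STAR data. It left the direction of every called gene of these lists as it was, but ended the calls of Nfkbia and Lcat and left the HDL list with 1 gene higher and 4 lower.

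The genes whose course over the 10 libraries of the Illumina STAR data was most like that of each member were found by the root mean square (RMS) difference of log2 CPM, each gene centred on its own mean, among 7809 other genes whose counts averaged 100 or more. For this the CPM were scaled by TMM, with a prior count of 2. Courses differ mainly by the size of the rise, since the samples form 2 groups. Saa1 was nearest to Mt2 (RMS 0.559, and 0.460 in the Ion Torrent STAR data), Cd14 (0.568 and 0.532) and Syt12 (0.627 and 0.643). Saa2 was nearest to A2m (0.584 and 0.842), Saa3 (0.657 and 0.663) and Lcn2 (0.693 and 0.809). Saa3 was nearest to A2m (0.266 and 0.685), Lcn2 (0.476 and 0.592) and Saa2. Saa4 was nearest to Cd93 (0.130 and 0.285), Dpy19l1 (0.164 and 0.188) and Yars (0.164 and 0.157).

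Some markers of liver cell types were called as well, and their part in the serum amyloid A changes was not tested. Of the 5 hepatocyte markers tested, 3 (Alb, Cps1 and Cyp2e1) were called lower and 0 higher, against 22.9% and 22.7% of all genes tested. Their median log2 fold change was -0.53. The 8 neutrophil markers summed to 2.18 to 6.98 CPM in untreated and 46.4 to 102 CPM in IL-1β libraries. Of these, 5 were tested and all 5 were called higher, against 22.7% of all genes tested. S100a8 rose by 5.18 and S100a9 by 5.29 on the log2 scale, while Ly6g, Mpo and Elane had at most 2 reads in any library. The 7 listed markers of Kupffer cells and macrophages summed to 127 to 250 CPM in untreated and 68.6 to 167 CPM in IL-1β libraries. Among these, 1 was called higher (Marco) and 3 lower, against 22.7% and 22.9% of all genes tested. Adipocyte markers summed to 0.367 to 1.54 CPM in untreated and 0 to 2.84 CPM in IL-1β libraries. Plin1 and Lep had 0 reads in all 10 libraries and Adipoq and Retn at most 1 read. Cfd, the only adipocyte marker tested, had 3 to 16 reads in untreated and 0 to 29 in IL-1β libraries and was not called. Sinusoidal endothelial markers summed to 113 to 186 CPM in untreated and 84.8 to 144 CPM in IL-1β libraries. They moved both ways, with Lyve1 and Cdh5 called higher, Kdr and Clec4g lower, and 2 not called, against 22.7% and 22.9% of all genes tested. Stellate cell and fibroblast markers summed to 255 to 363 and 159 to 277 CPM, with 2 of 6 called lower, against 22.9% of all genes tested. Cholangiocyte markers summed to 4.28 to 7.81 and 8.47 to 14.0 CPM, with Epcam and Sox9 called higher and Krt19 and Krt7 not called. Of all genes tested, 22.7% were called higher. Lymphocyte markers summed to 1.91 to 4.22 and 0.941 to 2.53 CPM, with 1 of the 5 tested called lower, near the 22.9% of all genes tested.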

How the data were processed

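Liver RNA of 10 mice was sequenced on both platforms, and the authors deposited 6 tables (2 platforms by 3 aligners) of 10 libraries that hold counts for each gene. The authors aligned reads to mm9 with STAR 2.5.1b, GSNAP (release 2015-12-31) or STAR followed by Bowtie2 2.2.9, versions that the submitters' processing notes also give. PORT was then used by them to discard rRNA and mitochondrial reads, to bring libraries to an equal number of gene-mapping reads by re-sampling within a table, and to count reads on Ensembl gene models. How reads matching several genes were counted is not given in the sources used here, and could move reads between Saa1 and Saa2. As each table was normalized on its own, groups were compared within a table.

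The 15578 genes that reached a count of 5 in any 5 libraries of a table were tested with edgeR 4.0.16 (R 4.3.3), using its quasi-likelihood test after TMM scaling, on the counts as deposited, and Benjamini-Hochberg adjustment over all of them at 0.05. The rank test of the study's methods was an alternative, since 5 mice against 5 give no exact two-sided p below 0.00794. Platform-by-treatment terms were fitted per aligner to its 20 libraries, blocked on mouse. The pairing comes from the aliquots of 1 RNA per mouse. The deviations of the 2 libraries of a mouse from their group means correlated at 0.488 to 0.699 for 9 mice and at 0.166 to 0.238 for mouse UNT_9584. Single values were compared with exact permutation tests over mice, and adjusted within their family. Counts are given without intervals. The intervals printed are those of the edgeR fold changes and platform-by-treatment terms, which rest on the edgeR SE and not on counting error alone.

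Levels are CPM per kb of merged exons, from unscaled library totals. Exons and positions are those of the Ensembl models on mm9, in which 37310 of the 37681 genes were found. In the tables the coordinates of the 4 genes are padded by 250 bases (Illumina) or 246 bases (Ion Torrent) on either side. Promoters were matched by symbol for 4 of 4 genes. Protein sequences were not analysed here, and coding sequences were compared in their place. Alignments used biopython 1.88, the figures matplotlib 3.10.9, and the rest pandas 2.3.3, scipy 1.17.1 and numpy 2.4.6 under Python 3.11.15. The statistical steps were tested on simulated data.

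Alternatives were DESeq2 1.42.0, limma-voom (limma 3.58.1), the Mann-Whitney test, DESeq2 size factors or library totals in place of TMM, 2 other filters, 1 or 5 added reads in ratios, no mouse block, and each mouse left out in turn. The 4 genes, the lists and the tests were chosen with earlier results of these data known. Beside the 4 genes, the text names the genes within 150 kb with at least 5 reads in 5 libraries, up to 2 largest rises and 2 largest falls called in each list, and the 3 genes of nearest course. The genes Scarb1, Apoa1, Nfkbia, Il6, Tnf, Gm15700, Tph1 and Ldhc and the cell type markers were named outside that rule after their values were seen.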

Additional observations from a re-analysis of the deposited data

Results flagged for a closer look

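Of 72 groups of 5 mice examined (counts of the 4 genes, the Saa1 share and the share of all reads, in each group and table), 1 held a mouse far from the others. It was Saa1 in the IL-1β mice of the Ion Torrent STAR + Bowtie2 data, where mouse ILB_9578 had 131656 reads against a group mean of 101273 ± 17618 (SD, n = 5). Its gap to the next mouse was 0.715 of the range of the group, just above the critical value of 0.710. Chance flags about 1 in 20 such groups.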

How the results depend on the processing

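For the log2 fold changes of the 4 genes, none of 168 other settings and none of 240 fits without a mouse changed the direction or the call. Over these settings and the 6 tables the log2 fold change ran from 6.77 to 7.18 for Saa1, from 8.11 to 8.83 for Saa2, from 9.25 to 9.68 for Saa3 and from 1.20 to 1.48 for Saa4. Library totals in place of TMM moved the median of all genes by -0.13 to -0.10 on the log2 scale, and the share of calls that were higher from 49.8% to 38.8% in the Illumina STAR data. The Mann-Whitney test called fewer genes higher: 2142 against 3541 (Illumina STAR), 2233 against 3685 (Illumina GSNAP), 2296 against 3571 (Illumina STAR + Bowtie2), 1843 against 3167 (Ion Torrent STAR), 2052 against 3498 (Ion Torrent GSNAP) and 2124 against 3546 (Ion Torrent STAR + Bowtie2). That test took the counts without TMM scaling, so test and scaling changed together, and it called 3716 to 4010 genes lower against 3392 to 3807.

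The comparison of Saa3 with Saa2 was the least stable. In the Illumina STAR data its difference was 0.81 with 5 reads added (exact permutation p = 0.0556) and 0.66 to 1.14 with a mouse left out. With a mouse left out it was 0.60 to 1.002 with Illumina GSNAP and 0.60 to 0.95 with Illumina STAR + Bowtie2, and in each of these 3 tables only the fit without mouse UNT_9580 kept the call. The other 5 pairs kept theirs under every such setting. The difference in the Saa1 share between STAR + Bowtie2 and STAR passed 0.05 without mouse UNT_9575, and ran from 0.11 to 0.37 points (Illumina) and from -0.64 to -0.28 points (Ion Torrent) with a mouse left out. The Saa2 platform-by-treatment term with GSNAP ran from -0.37 to -0.21 with a mouse left out, and passed the threshold without mouse UNT_9584. Without the mouse as a replicate block this term was -0.36 (edgeR adjusted p = 1), and no platform-by-treatment term of the 4 genes was called with or without the block.

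Depth limits Saa3 most, since untreated Illumina STAR libraries held 55 to 72 of its reads.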
